A study of Oryza sativa Indica Group with 6 samples.

Results

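The Aux/IAA and ARF families were followed through seedlings of the rice mutant *sd37* and of its wild type. Members were taken by name: every gene of the reference annotation whose symbol or synonym is IAA with a number up to 31 or ARF with a number up to 25, with a leading Os ignored. The reference names 28 *Aux/IAA* and 23 *ARF* genes in this way, 51 in all. Of these, 43 had a probe set that is annotated to them alone, 26 *Aux/IAA* and 17 *ARF* genes, among 17905 single genes with a probe set on the array. Where a gene had more than 1 probe set (9 genes), the one with the highest mean signal stands for it. *IAA11*, *IAA29*, *ARF5*, *ARF6*, *ARF8*, *ARF19*, *ARF21* and *ARF25* were not analysed here. Several genes carry a second family name. The gene called *ARF23* here is also listed as *ARF1*, *ARF18* as *ARF10*, *ARF4* as *ARF2*, *ARF12* as *ARF8*, *ARF1* as *ARF16*, *IAA13* as *IAA1*, *IAA5* as *IAA8* and *IAA4* as *IAA20*.

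Aux/IAA proteins are short-lived repressors of the auxin response, and auxin response factors (ARFs) are the DNA-binding proteins that they hold in check. ARFs bind auxin response elements in promoters, and an Aux/IAA protein bound to an ARF recruits a TOPLESS-type corepressor. Auxin joins an Aux/IAA protein to its F-box receptor, which marks the repressor for degradation, and many *Aux/IAA* genes are themselves induced by auxin, so that the pathway feeds back on itself. In rice seedlings the families act in root, leaf and shoot growth.

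The mutant *sd37* is a semi-dwarf line of the *indica* rice cultivar 3037 with a point mutation in the cytochrome P450 gene *CYP96B4*, and wild-type seedlings were of 3037 itself. Both were 2 weeks old, were grown in a phytotron with 16 h of light at 26°C and 8 h of dark at 18°C, and gave 3 biological replicates each, with 1 Affymetrix Rice Genome Array per replicate. The mutant line carries a single allele. The labels and the methods name seedlings, but a note in the supplement speaks of apices, so which tissue was taken is not certain. The labels number the replicates 1, 2 and 3 in both genotypes and do not say what a shared number stands for.

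The arrays gave 1 linear signal per probe set, and differences are given on the log2 scale with the standard error (SE) from limma. A difference was called where the Benjamini-Hochberg adjusted p over 57258 probe sets was under 0.05 and the change was at least 1.5-fold. Both arrays of replicate 1 had a higher median signal (56.2 in *sd37* and 51.0 in the wild type) than the arrays of replicates 2 and 3 (34.1 to 34.3 in *sd37* and 32.3 to 33.8 in the wild type). The 9 spiked-in hybridization control probe sets averaged 4515.8 to 4993.2 in replicate 1 and 2463.9 to 2663.6 in replicates 2 and 3, while the ratio of the 3′ to the 5′ actin probe sets overlapped, with 10.9 to 14.03 and 11.7 to 15.7. The part of these array differences in the results below was not tested. On every array the 3′ actin signal was at least 10.9 times the 5′ signal, and the part of RNA quality in the signals was not tested either. Signals of different probe sets are not on one scale, so each gene is compared only with itself. Sums over a list of marker genes are compared only between arrays.

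Of the 17 *ARF* genes, 16 had a mean signal of 100 or more, on all 6 arrays, and only *ARF13* stayed under 100 on every array. Among the 26 *Aux/IAA* genes 14 had a mean signal of 100 or more, and 10 stayed under 100 on all arrays. *IAA17* had 8408.1, 9555.0 and 11532.6 in *sd37* replicates 1 to 3, against 7708.5, 11253.0 and 12582.3 in wild-type replicates 1 to 3. *ARF4*, a regulator of grain size in rice, had 4633.1, 5199.9 and 5636.2 in *sd37*, against 4999.6, 4298.7 and 5174.6 in the wild type. These probe sets gave overlapping signals in the genotypes. The files hold no detection calls, so whether the genes under 100 were expressed at all cannot be read from them. Precision followed the signal in the *Aux/IAA* family. The median SE of the genotype difference was 0.30 among the *Aux/IAA* genes with a mean of 100 or more and 0.91 among the other 12. It did so less in the *ARF* family. There the SE ran from 0.19 to 1.26 among the 16 genes with a mean of 100 or more (median 0.44) and was 0.66 in *ARF13*. With the replicate number in the fit, the SE ran from 0.10 to 0.37 in those 16 genes and was 0.59 in *ARF13*.

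The first comparison asked whether the mutation changed the auxin response families. No *Aux/IAA* or *ARF* gene was called as different between *sd37* and the wild type. The call was made for 0 of 43 members, and for 0% of all probe sets, in limma, and every member had an adjusted p of 1. Before adjustment (p under 0.05, same fold), 0 members passed in either direction, where 1.2% of all probe sets passed as higher and 0.98% as lower. The ordinary equal-variance test gave 1 member at that level, *IAA4*, and none after adjustment. A p that misses the threshold does not show that the genotypes were alike. This fit had no term for the replicate number, so differences between replicates entered its SE. The SE of *ARF1* was 1.26 here and 0.15 with the replicate number in the fit, which is given below. With 3 arrays against 3 an exact test on a single gene cannot go below p = 0.1.

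In the *Aux/IAA* family 12 genes had a higher and 14 a lower estimate in *sd37*, with a median difference of -0.04. In the *ARF* family 9 were higher and 8 lower, with a median of 0.02. The median over all probe sets was 0.02. Neither median kept its sign when single arrays were left out, with -0.06 to 0.10 for *Aux/IAA* and -0.35 to 0.17 for *ARF*. The *ARF* estimates lay between -0.35 and 0.15, with SEs of 0.19 to 1.26. Those of *Aux/IAA* ran between -1.69 and 2.02, and the ones beyond 0.5 on either side all belonged to genes with a mean signal under 100. Among the members with a mean of 100 or more, 12 of 14 *Aux/IAA* and 16 of 16 *ARF* genes differed by less than 1.3-fold.

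The 2 genes whose arrays did not overlap between the genotypes were *IAA4*, higher in *sd37*, and *IAA14*, lower in it, where 3.2% of all probe sets had no overlap as higher and 2.87% as lower. *IAA4* gave 19.2, 46.7 and 9.6 in *sd37* against 5.6, 4.3 and 5.4 in the wild type, a difference of 2.02 (SE 0.92, unadjusted p = 0.0609, limma, n = 3 each). Its probe set is of a kind that may read other transcripts, and the other 2 probe sets of the gene gave -0.31 and 0.32, so the direction rests on this probe set. *IAA14* had 1.5, 1.1 and 0.4 in *sd37* against 2.7, 12 and 1.7 in the wild type (-1.69, SE 0.86, unadjusted p = 0.0856). The log scale used a floor of 1, and 5 of the 6 signals lay under 3. The highest, 12 in wild-type replicate 2, carried part of the estimate, which was -0.86 without that array.

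The other members of smallest p were *IAA8* and *IAA18* as higher and *IAA13* and *IAA12* (-1.15, SE 1.41) as lower. *IAA8* had 81.9, 27.2 and 35.0 in *sd37* against 132.4, 2.0 and 8.0 in the wild type, so it was the lower of the pair in replicate 1 and the higher in replicates 2 and 3 (1.73, SE 1.47). Its second probe set, also dim, had the other sign (-0.76, SE 1.19). *IAA18* had 44.6, 55.5 and 36.3 in *sd37* against 20.0, 23.1 and 36.6 in the wild type (0.80, SE 0.64). *IAA13*, whose stabilized form blocks lateral root formation in rice, had 935.5, 439.6 and 636.2 in *sd37* against 922.6, 897.0 and 877.5 in the wild type (-0.49, SE 0.31, unadjusted p = 0.148). The wild-type arrays of *IAA13* were close together. The *sd37* arrays were spread, with replicate 1 above all of the wild type and replicates 2 and 3 below it.

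In the *ARF* family the estimates of smallest p were *ARF18*, *ARF4* and *ARF12* as higher (0.15, 0.10 and 0.09) and *ARF3*, *ARF22* and *ARF13* as lower (-0.23, -0.35 and -0.23). *ARF18* had 2181.3, 2119.8 and 2030.6 in *sd37* against 2043.2, 1875.9 and 1780.2 in the wild type, higher in *sd37* within each replicate number by 0.09 to 0.19. *ARF12*, needed for root elongation in rice, had 445.9, 554.7 and 437.5 in *sd37* against 453.7, 476.3 and 411.3 in the wild type. *ARF3* had 622.4, 972.9 and 730.5 in *sd37* against 736.7, 951.3 and 1019.6 in the wild type. In all 3 the genotypes overlapped. *ARF13*, the only dim *ARF*, had 54.5, 31.3 and 31.7 in *sd37* against 69.0, 24.3 and 51.9 in the wild type. The second probe set of *ARF4* had the other sign (-0.03, SE 0.18).

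**Figure D1:**
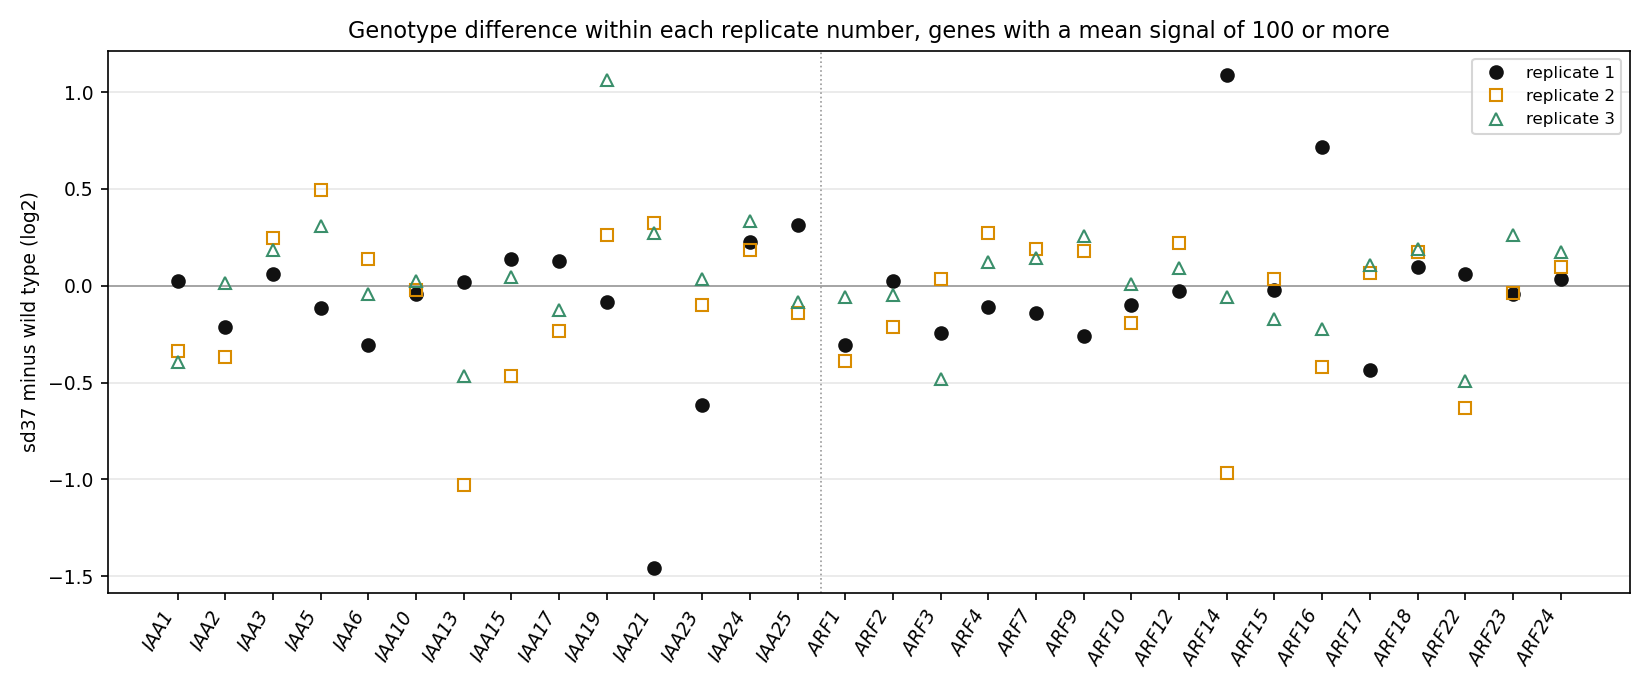
The log2 difference of *sd37* minus the wild type within each replicate number, for the 14 *Aux/IAA* genes (left of the dotted line) and the 16 *ARF* genes with a mean signal of 100 or more. Each gene has 1 point per replicate number. *IAA21* stands at -1.46 in replicate 1 and at 0.32 and 0.27 in replicates 2 and 3, and *ARF22* at 0.06, -0.63 and -0.49.

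With the replicate number as a block the SE fell to between 0.10 and 0.37 for the genes with a mean signal of 100 or more, and still no member was called, where 6 of all probe sets were (0.0105%). The smallest p-values were then those of *IAA13* (unadjusted p = 0.0385, adjusted p = 0.811, limma) and *ARF22* (unadjusted p = 0.0394, adjusted p = 0.812, limma). *ARF22*, one of the ARFs cut by miR160, had 1108.6, 2914.1 and 3603.5 in *sd37* against 1063.9, 4510.1 and 5070.7 in the wild type. Its signals were near equal in replicate 1 and lower in *sd37* in replicates 2 and 3. With replicates 2 and 3 alone its difference was -0.56 (adjusted p = 0.444) and that of *IAA13* was -0.75 (adjusted p = 0.478).

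The second comparison set replicate 1 of both genotypes (2 arrays) against replicates 2 and 3 (4 arrays), with the genotype in the fit. It was chosen knowing that the arrays of replicate 1 stand apart. Of the 17 *ARF* genes 8 were lower in replicate 1 and none was higher. Of the 26 *Aux/IAA* genes 4 were higher and 4 were lower. Over all probe sets 9.38% were called as higher and 9.85% as lower. With 1 probe set per gene these shares were 14% and 18.5%, against 15.4% as higher and 15.4% as lower in *Aux/IAA* and 0% as higher and 47.1% as lower in *ARF*. Since dim genes pass less often, the shares were also taken over genes with a mean signal of 100 or more. There 17.5% of all genes were called as higher and 24.4% as lower, with 3 and 3 of 14 *Aux/IAA* genes and 0 and 8 of 16 *ARF* genes. The median difference was 0.12 in *Aux/IAA* and -0.48 in *ARF*, where all genes by 1 probe set each had -0.02 and all probe sets had 0.39. The *ARF* median was -1 without *sd37* replicate 1. The *Aux/IAA* median was 0.43 without wild-type replicate 1 and turned to -0.019 with the mean of each gene's probe sets. The difference between the families was not tested. Quantile normalization brought the median of all probe sets to -0.01, and the same 8 *ARF* genes were called as lower after it.

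*ARF1* moved most in its family. Its signals were 104.4 in *sd37* replicate 1 and 129.1 in wild-type replicate 1, against 1175.0 and 1670.4 in *sd37* replicates 2 and 3 and 1538.9 and 1740.0 in the same replicates of the wild type. Both arrays of replicate 1 lay far below the other 4, a difference of -3.71 (SE 0.17, 13.0-fold, adjusted p = 3.76e-06), and within the genotypes it was -3.75 in *sd37* and -3.66 in the wild type. *ARF22* had 1108.6 and 1063.9 in replicate 1 of *sd37* and the wild type, against 2914.1 to 5070.7 in replicates 2 and 3 (-1.86, SE 0.16, adjusted p = 7.71e-05).

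*ARF15* is an ARF of the kind cut by trans-acting small RNAs. It had 1864.9 in *sd37* and 1896.9 in the wild type in replicate 1, against 5520.8 to 6218.5 in replicates 2 and 3 (-1.64, SE 0.10). *ARF23* and *ARF24*, which in rice act on the actin cytoskeleton through the formin gene *RMD*, moved alike. *ARF23* had 3739.6 in *sd37* and 3850.4 in the wild type in replicate 1, against 10000.4 to 13551.2 in replicates 2 and 3 (-1.56, SE 0.14, adjusted p = 7.33e-05). *ARF24* had 1493.5 and 1460.2 in replicate 1, against 3659.2 to 4372.6 (-1.42, SE 0.11). *ARF9* had 1904.5 and 2277.0 in replicate 1, against 5123.9 to 6954.0 (-1.50, SE 0.14). In each of these genes the genotypes lay close together inside replicate 1, and no array of replicate 1 reached the lowest of the others. *ARF10* (-1.19) and *ARF2* (-1.18) also passed.

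**Figure D2:**
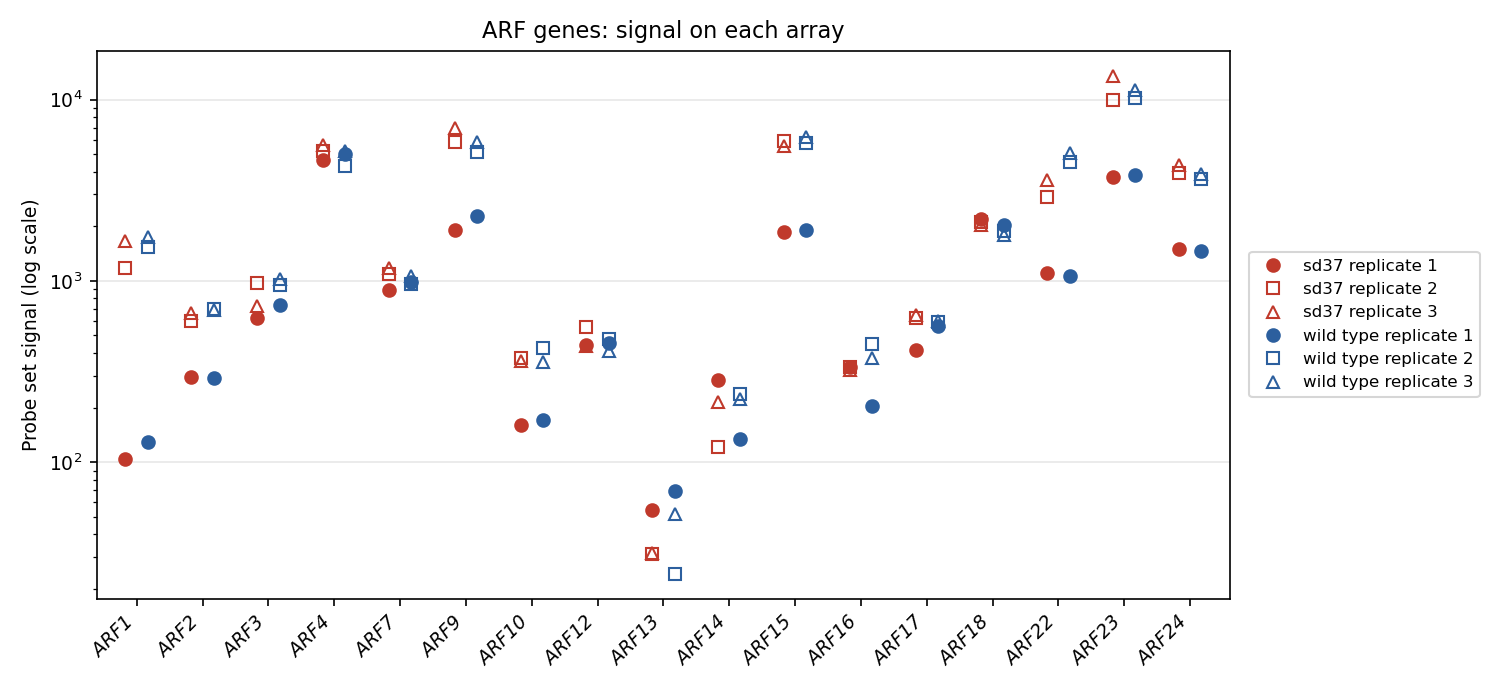
Signals of the 17 *ARF* genes on each array, on a log scale, with *sd37* in red and the wild type in blue. Filled circles are replicate 1 and open symbols replicates 2 and 3. The filled circles of the called genes *ARF1*, *ARF2*, *ARF9*, *ARF10*, *ARF15*, *ARF22*, *ARF23* and *ARF24* lie below all open symbols. So do those of *ARF17*, which was not called, while those of *ARF4*, *ARF12* and *ARF18* lie among or beside them.

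The other 8 *ARF* genes with a mean signal of 100 or more had differences between -0.48 and 0.12 (adjusted p = 0.0803 to 0.973). They were *ARF3*, *ARF4*, *ARF7*, *ARF12*, *ARF14*, *ARF16*, *ARF17* and *ARF18*. *ARF7* had 890.9, 1089.2 and 1172.7 in *sd37* replicates 1 to 3 and 983.2, 956.7 and 1063.6 in those of the wild type, with no separation of replicate 1. Both probe sets of *ARF4* stayed near 0, with -0.07 and 0.001. *ARF13*, with the mean under 100, had 0.87 (SE 0.59). The family was also read by what its members are known for, a grouping that was made after the values were seen. The measured activator-type ARFs, *ARF12*, *ARF16* and *ARF17*, had 0 of 3 called, with differences of -0.48 to -0.05. Among all genes with a mean signal of 100 or more 24.4% were called as lower, so 0 of 3 does not set these genes apart. Of the 3 targets of miR160, *ARF10* and *ARF22* were lower and *ARF18* was not called (0.12). Of the 4 targets of trans-acting small RNAs, *ARF2* and *ARF15* were lower, while *ARF3* (-0.43) and *ARF14* (0.02) were not called. Among the 7 other ARFs, of the repressor type, 4 were lower (*ARF1*, *ARF9*, *ARF23* and *ARF24*). Differences between these groups were not tested.

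The called *Aux/IAA* genes went both ways. *IAA5* reached 12405.4 in *sd37* and 13414.6 in the wild type in replicate 1, against 4575.4 to 6449.8 in replicates 2 and 3 (1.24, SE 0.13, adjusted p = 0.000208). *IAA6* had 775.2 and 957.8 in replicate 1, against 334.7 to 368.2 in the others (1.28, SE 0.16, adjusted p = 0.00057). Both arrays of replicate 1 were above every other array in these genes. *IAA19* had 805.1 and 853.8 in replicate 1, against 107.4 to 469.2 (1.69, SE 0.49, adjusted p = 0.039). Without the intensity trend in limma it was not called (adjusted p = 0.191). In *IAA19* replicates 2 and 3 differed too, with 469.2 and 223.9 in *sd37* and 391.4 and 107.4 in the wild type, and the call was lost without *sd37* replicate 1, *sd37* replicate 3 or wild-type replicate 1 (adjusted p = 0.159, 0.104 and 0.342).

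*IAA20* had the highest difference of the family, with all arrays under 100. It had 25.8 in *sd37* and 35.5 in the wild type in replicate 1, against 1.2 and 4.2 in *sd37* and 2.9 and 1.2 in the wild type in replicates 2 and 3 (3.89, SE 0.97, adjusted p = 0.0207). The call was lost in 6 of 11 other settings, among them quantile normalization (adjusted p = 0.0539), and the genotype difference of *IAA20*, 0.02 (SE 1.57), changed sign there (-0.05). The other marker of the family, *IAA14*, was not called by replicate number (-0.11, SE 0.88).

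On the lower side, *IAA25* had 2648.4 in *sd37* and 2133.6 in the wild type in replicate 1, against 6175.6 to 7924.8 in replicates 2 and 3 (-1.57, SE 0.14, adjusted p = 8.33e-05). *IAA1* had 963.8 and 946.4, against 1847.1 to 2610.6 (-1.19, SE 0.13). *IAA21* had 197.7 and 543.6, against 1046.6 to 1458.6 (-1.90, SE 0.33). Inside replicate 1 *sd37* differed from the wild type by 0.31 in *IAA25*, 0.03 in *IAA1* and -1.46 in *IAA21*. *IAA12* had 1.7 and 19.1, against 33.9 to 77.3 (-3.15, SE 0.97, adjusted p = 0.0492). All arrays of *IAA12* were under 100 and the call was lost in 9 of 11 other settings, so it is the weakest of the 8.

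**Figure D3:**
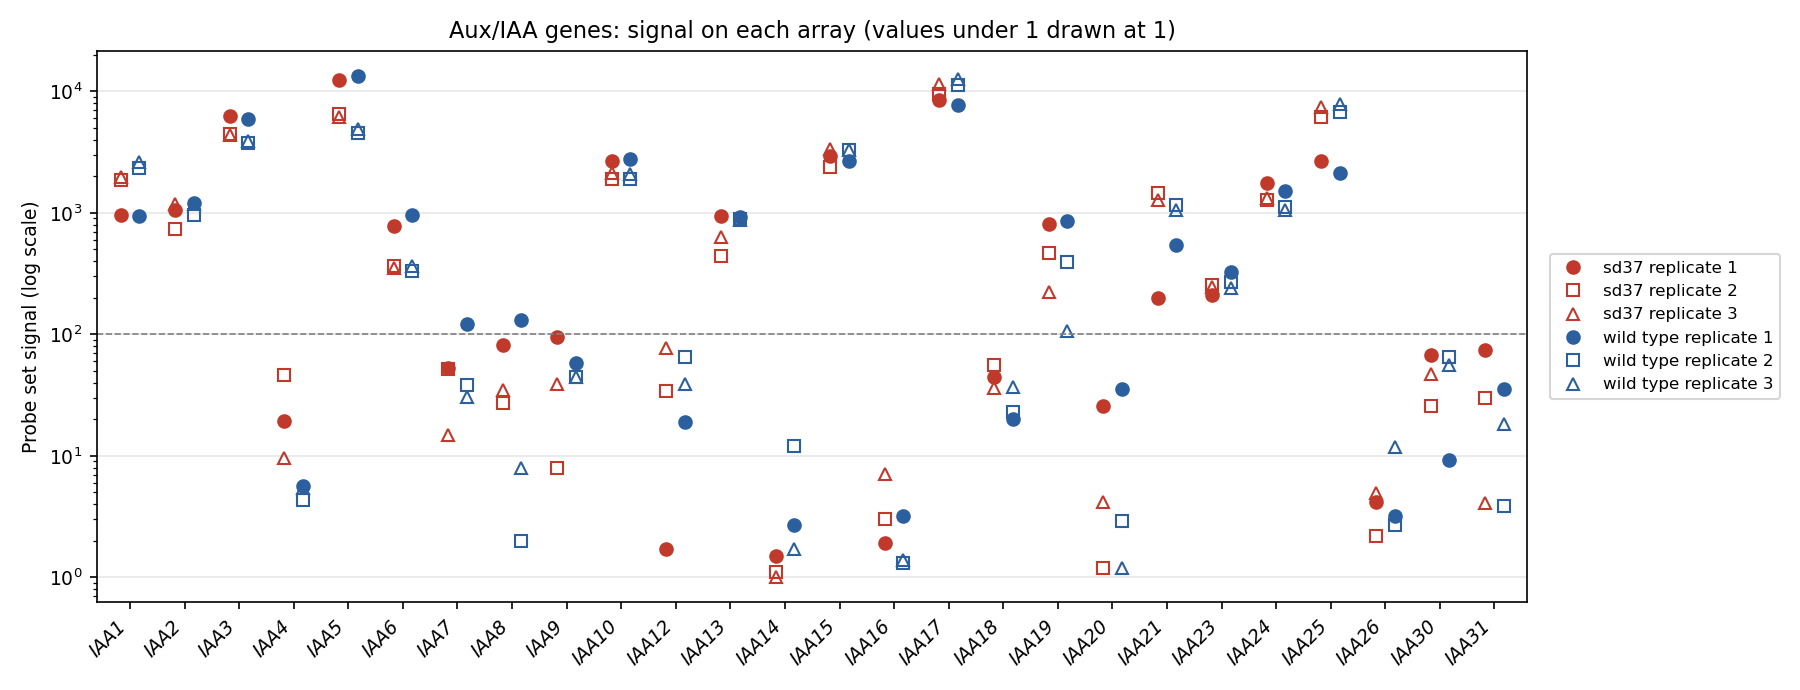
Signals of the 26 *Aux/IAA* genes on each array, on a log scale, with *sd37* in red and the wild type in blue, filled circles for replicate 1 and a dashed line at a signal of 100. Among the called genes with a mean signal of 100 or more, filled circles lie above the open symbols for *IAA5*, *IAA6* and *IAA19*. They lie below them for *IAA1*, *IAA21* and *IAA25*. Of the genes not called, those of *IAA3*, *IAA10*, *IAA13* and *IAA24* also lie above and those of *IAA17* below. The genes under the dashed line scatter widely.

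Another 4 *Aux/IAA* genes passed the adjusted p with a smaller change. *IAA3* was higher in replicate 1 by 0.57 (SE 0.10, adjusted p = 0.00326), which is 1.49-fold and just short of the limit. *IAA10*, whose protein is bound by a protein of rice dwarf virus, had 0.45 and *IAA24* had 0.45, and *IAA17* was lower with -0.47. Of the remaining members with a mean of 100 or more, *IAA2* had 0.18, *IAA13* 0.44, *IAA15* -0.11 and *IAA23*, which is needed for the root quiescent centre in rice, 0.05. The dim genes *IAA4*, *IAA7*, *IAA8*, *IAA9*, *IAA14*, *IAA16*, *IAA18*, *IAA26*, *IAA30* and *IAA31* had differences between -0.87 and 3.23, and none was called. *IAA30* and *IAA31* lie next to each other in the reference, and had -0.87 (SE 0.86) and 2.42 (SE 1.13).

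Second probe sets were read for the genes that have them. The second probe set of *ARF23* had -1.78 (SE 0.14, adjusted p = 5.12e-05) and that of *ARF2* -0.76 (SE 0.22, adjusted p = 0.0406), both called. That of *ARF23* is, like the one of *IAA4*, of a kind that may read other transcripts. So are the probe sets that stand for *IAA17* and *IAA23*, and some of the gene lists below. The second probe set of *IAA1*, with signals of 61.5 to 99.9, had -0.35 (SE 0.39) and was not called. The other probe sets of *IAA4* (-0.64 and -0.48), *IAA8* (0.49), *IAA23* (0.74 and -0.85), *IAA31* (1.85) and *ARF4* were not called, and in *IAA4*, *IAA23* and *ARF4* the probe sets differed in sign. For *IAA3* the second probe set had 8.3 in *sd37* and 59.6 in the wild type in replicate 1, against 87.4 to 209.1 in replicates 2 and 3, and was called as lower (-2.44, SE 0.64, adjusted p = 0.0247) where the brighter one was higher.

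**Figure D4:**
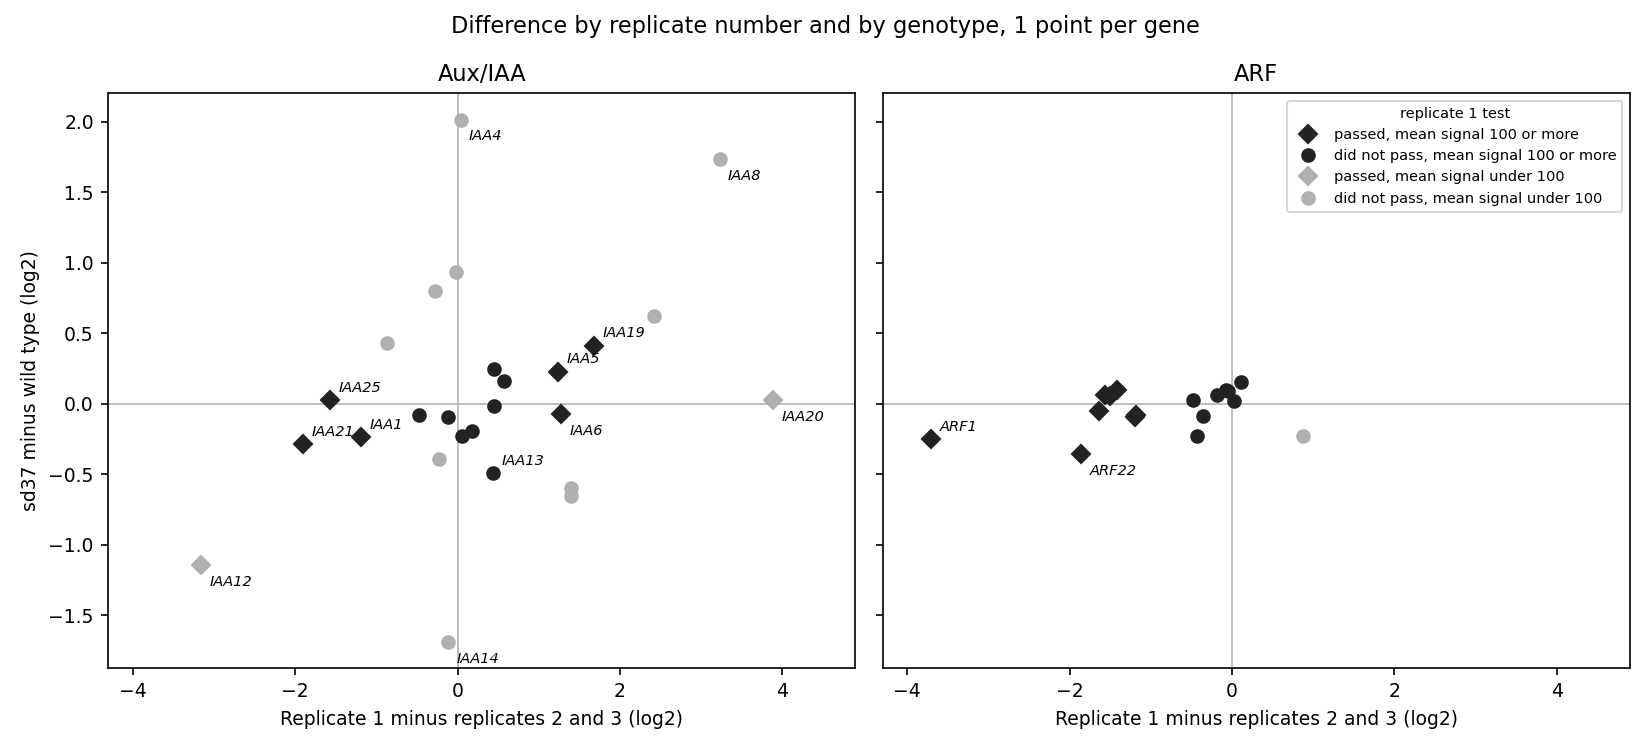
Each gene by its log2 difference of replicate 1 minus replicates 2 and 3 (horizontal) and of *sd37* minus the wild type (vertical), for *Aux/IAA* (left) and *ARF* (right). Diamonds were called by replicate number and grey symbols have a mean signal under 100. The *ARF* genes spread to the left, as far as -3.71 for *ARF1*, and stay within 0.36 of 0 on the vertical axis, and the widest vertical positions belong to the dim *IAA4*, *IAA8* and *IAA14*.

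The difference of *sd37* from the wild type was also compared between replicate 1 and replicates 2 and 3, as an interaction in limma. No member was called, and 0% of all probe sets were. Before adjustment (p under 0.05, same fold), 4.1% of all probe sets passed as higher and 3.6% as lower, and 4.89% and 4.12% of the genes with a mean signal of 100 or more. Among the members there were 2 *Aux/IAA* genes, *IAA30* as higher and *IAA21* as lower, and 3 *ARF* genes, *ARF14*, *ARF16* and *ARF22*, all as higher. *IAA21* had the smallest p (-1.76, unadjusted p = 0.000464, adjusted p = 0.573), with 197.7 in *sd37* and 543.6 in the wild type in replicate 1, and with *sd37* the higher one in replicates 2 and 3. *ARF14* had 285.6 in *sd37* and 134.5 in the wild type in replicate 1, but 121.2 and 237.2 in replicate 2. *ARF16* had 336.6 and 204.8 in replicate 1 and 333.8 and 446.2 in replicate 2. Replicate 1 holds 1 array per genotype, so these values rest on single arrays.

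The other genes of the auxin pathway were taken from a list by symbol. The receptor genes of the list were not analysed here. Of 23 listed genes measured, 2 of synthesis, 7 of transport, 10 of inactivation, 1 early response gene and 3 corepressors, 0 were called between the genotypes. By replicate number 1 was higher and 2 were lower (4.35% and 8.7%), where 14% and 18.5% of all genes were. Of the listed genes, 1 of synthesis, 4 of transport, 5 of inactivation and 1 corepressor stayed under 100 on all arrays. Dim genes pass less often, so these shares are not matched for signal and show no lack of calls in the pathway. Not all names mean an auxin gene. *LAX1* is here *LAX PANICLE1*, a regulator of branching, *ASP1* carries the name of an aspartic protease, and *GH3.5* is *JAR1*, which conjugates jasmonate. None of the 3 was called.

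*GH3.2* encodes an enzyme that conjugates indole-3-acetic acid to amino acids. Its signals were 280.5 in *sd37* and 144.7 in the wild type in replicate 1, against 1116.1 and 2859.8 in *sd37* and 4827.3 and 5145.4 in the wild type in replicates 2 and 3. Replicate 1 was lower by 14.8-fold (-3.89, SE 0.51, adjusted p = 0.000736), and within the replicate numbers 1, 2 and 3 *sd37* differed from the wild type by 0.95, -2.11 and -0.85. *SAUR39*, a small auxin-induced gene that holds back auxin synthesis in rice, had 951.3 and 957.4 in replicate 1 of *sd37* and the wild type, against 410.0 and 342.9 in *sd37* and 235.6 and 218.4 in the wild type (1.71, SE 0.20, adjusted p = 0.000427). A TOPLESS-type corepressor that the reference lists as *TPR1* and *TPR2* had 1650.8 and 1724.2 in replicate 1, against 5703.5 to 6915.8 in the others (-1.90, SE 0.11, adjusted p = 1.14e-05). The corepressor gene *ASPR1* had 3130.6 and 3413.1 in replicate 1 against 3590.8 to 4075.7 and was not called (-0.26). *FIB*, which encodes the aminotransferase of the first step of auxin synthesis, had 510.5, 578.5 and 713.1 in *sd37* against 554.6, 838.8 and 1226.1 in the wild type (-0.48, unadjusted p = 0.187). Within replicate numbers 1, 2 and 3 it differed by -0.12, -0.54 and -0.78. With the replicate block its unadjusted p was 0.0198 (adjusted p = 0.756, limma). That of *SAUR39*, with a difference of 0.48, was 0.0436 (adjusted p = 0.816, limma). Neither was called.

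**Figure D5:**
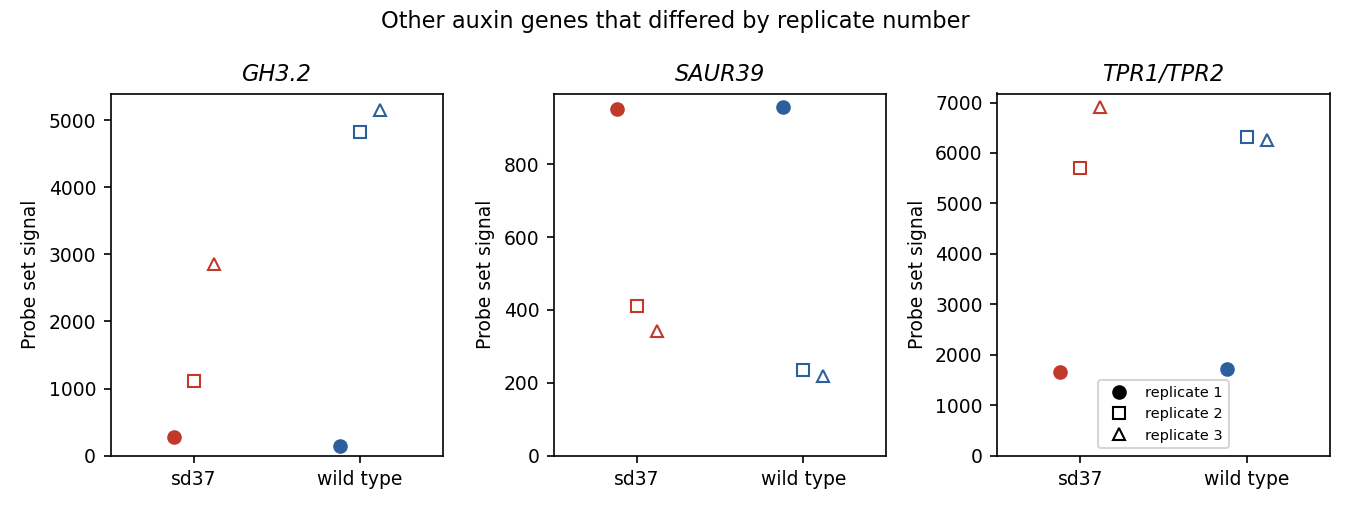
Signals of *GH3.2*, *SAUR39* and the corepressor gene *TPR1/TPR2* on each array, on a linear axis from 0, with *sd37* left of the wild type. Replicate 1 (filled circles) is lowest for *GH3.2* and *TPR1/TPR2* and highest for *SAUR39* in both genotypes.

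Markers of tissues were read on the same arrays. The 3 measured leaf photosynthesis genes, *CAB2R*, *RCA* and *RBCS*, were all called as higher in replicate 1. Their summed signal was 185920 to 217712 there and 81418.6 to 105395 in replicates 2 and 3. With 1 probe set per gene, 14% of all genes were called as higher and 18.5% as lower. Among genes with a mean signal of 100 or more these shares were 17.5% and 24.4%. Of 12 flowering MADS-box genes 7 were called as lower in replicate 1, and 5 stayed under 100 on all arrays. The summed MADS-box signal was 2445 to 3289.6 in replicate 1 and 18046.4 to 21645.3 in replicates 2 and 3. A sum is carried by its brightest probe sets, here above all *MADS18*, with 1227.2 and 1899.3 against 10178.3 to 12102. It does not measure an amount of tissue. All 5 *KNOX* genes of the shoot apex were under 100 on every array, with a highest signal of 67.8. Their summed signal was 177.2 to 190.6 in replicate 1 and 56.4 to 78.4 in replicates 2 and 3, and none was called. The median signal of all probe sets was also higher in replicate 1 (56.2 and 51.0 against 32.3 to 34.3). The part of that shift in the *KNOX* sums was not tested. Of the root list only the symbol *RSS1* was matched, by 2 different genes, of which 1 was higher and 1 lower in replicate 1, so it gives no reading of root tissue. By genotype the photosynthesis sums were 89782.6 to 217712 in *sd37* and 81418.6 to 185920 in the wild type, the MADS-box sums were 2445 to 21380.8 in *sd37* and 3289.6 to 21645.3 in the wild type, and no listed gene was called. In samples of mixed tissue a smaller amount of one tissue and less RNA of a gene per cell cannot be told apart, and the part of these markers in the differences of the *ARF* and *Aux/IAA* genes was not tested.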

How the data were processed

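Total RNA of *sd37* and wild-type seedlings was run on Affymetrix Rice Genome Arrays by a service, with 3 arrays per genotype. The intensity values were used as the authors deposited them, as linear probe set signals after the normalization of that service. How those signals were summarised from probes is not stated in the sources used here. RNA was extracted with acidic phenol after the methods, but with a column kit after the labels. Control probe sets (123) were left out. Signals under 1 (1.77% of values) were set to 1 and log2 was taken. The 57258 remaining probe sets were fitted in R 4.3.3 with limma 3.58.1 (lmFit and eBayes, intensity trend on), all 6 arrays together, with no covariate for the genotype, with the genotype for the replicate number, and with both for the interaction. The genotype and replicate number fits were tried on simulated arrays, with large changes planted in probe sets at or above the median signal. The simulated genotype data held no shift of replicate 1, so how that fit behaves under such a shift was not tested. The interaction fit was not tried in this way.

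Genes were named through the platform's probe table and the reference annotation. Probe sets with several genes (95) were left out. The members and the gene lists were chosen with earlier results of these data known. Named were *IAA20* and *IAA14*, in each family the 3 genes of smallest unadjusted p per direction for the genotype, the called genes for the replicate number, the 3 genes of highest mean signal, and the called genes of the pathway list. Other genes were named after their values were seen. The lists were auxin synthesis, transport, inactivation, early response, corepressors and receptors, and leaf photosynthesis, root, *KNOX* and flowering MADS-box genes. No table of proteins, promoters or miRNAs was used here, so no sequence is shown.

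Deviations of the arrays from their genotype's mean correlated between the genotypes with 0.39 for replicate 1, 0.13 for replicate 2 and 0.16 for replicate 3. All lay above 0.1, so the numbers were taken to pair the arrays and a fit with a replicate block was run. Replicates 2 and 3 were as alike across numbers (0.16 and 0.13), so the check cannot show pairing by number beyond replicate 1. Nothing in the labels says how replicates were separated beyond the word biological. Alternatives were quantile normalization, log2 of the signal plus 16, probe sets at or above the median signal, the mean of a gene's probe sets, no intensity trend, the replicate block, replicates 2 and 3 alone, the ordinary equal-variance test, all 3 replicate numbers as a factor, and each array left out. Depth does not apply to arrays, and their number limits the precision.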

Additional observations from a re-analysis of the deposited data

How the results depend on the processing

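No alternative called a member between the genotypes, the replicate block included (0 members), and the smallest adjusted p of a named member was 0.444. The median genotype difference was near 0 and its sign was not stable. With replicates 2 and 3 alone it was -0.068 in *ARF* and 0.014 in *Aux/IAA*, and with single arrays left out it ran between -0.35 and 0.17 in *ARF* and between -0.063 and 0.10 in *Aux/IAA*. The sign of single genes also turned: *ARF12* (-0.015 to 0.16), *ARF13* (-0.66 to 0.091), *ARF22* (-1.08 to 0.16), *IAA12* (-2.26 to 0.49) and *IAA20* (-1.15 to 1.44) with an array left out, *IAA12* with replicates 2 and 3 alone (0.027), and *IAA20* after quantile normalization (-0.049) and with log2 of the signal plus 16 (-0.068). The cause was not tested.

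By replicate number, 10 of the 16 called members (8 *ARF* genes, *IAA6* and *IAA25*) were called in all 12 alternatives. Left-out arrays gave 14 to 15 called members, with 2 to 4 *Aux/IAA* genes as higher (2 without wild-type replicate 1) and 3 to 4 as lower. Without the intensity trend 10 members were called, with 1 *Aux/IAA* gene as higher and 1 as lower, where all probe sets called were 4519, against 11012 with the trend. The *ARF* median stayed negative, between -1 and -0.45 with an array left out. The *Aux/IAA* median was 0.31 for probe sets at or above the median signal, -0.019 for the mean of a gene's probe sets and 0.19 to 0.43 with an array left out. *IAA14* turned sign by replicate number with an array left out (-0.74 to 0.58). Signals near the floor limit the dim genes, whose median standard error was 0.92 against 0.15 for *Aux/IAA* genes with a mean of 100 or more. All probe sets called between the genotypes were 0, with 6 under the replicate block and 17 in replicates 2 and 3 alone.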
